A study of Mus musculus with 67 samples.

Results

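Ly6C- monocytes sorted from bone marrow and from blood of C57BL/6 mice aged 7 weeks were compared gene by gene. The members are the 7 libraries that the labels of one table place in these groups, 4 from marrow Ly6C- cells and 3 from blood Ly6C- cells, of 25 libraries in that table and 67 in the series. None of these mice carries a transgene, a knockout or a graft according to the labels. The series measured polyadenylated RNA in sorted monocytes and their progenitors from marrow, blood and spleen. Marrow was crushed before enrichment and blood was not, and both were enriched with biotinylated antibody to CD115 on magnetic beads and then sorted, so tissue and preparation cannot be told apart. The other groups used here are marrow Ly6C+ monocytes (3 libraries) and blood Ly6C+ monocytes (4 libraries) of the same table, and its blood monocytes of intermediate Ly6C level, Ly6Cint (3 libraries). From 2 further tables come Ly6C- monocytes of host mice in a monocyte transfer experiment, C57BL/6 aged 8 weeks, from spleen (2 libraries) and blood (2 libraries), and wild-type blood Ly6C- and Ly6C+ monocytes of mice of mixed background aged 16 weeks (2 libraries each).

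Ly6C- monocytes, also called non-classical or patrolling monocytes, arise from Ly6C+ classical monocytes and depend on the nuclear receptor Nr4a1. They crawl along the inner wall of blood vessels, hold on through integrins, take up debris and respond to damage of the endothelium. A population with the same surface phenotype is found in bone marrow, and Ly6C+ cells can give rise to it there.

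Values are reads per 1000000 (RPM): the deposited numbers are reads scaled to a common total per library, and every value of the 7 libraries came out as a whole number of reads within 0.1 read. The marrow libraries held 1267652, 952262, 1028173 and 577690 reads on listed genes, and the blood libraries held 1063547, 1058788 and 1066378. One read corresponded to 0.498 to 1.11 RPM in marrow and to 0.579 to 0.667 RPM in blood, so genes under about 2 RPM rest on a few reads. Both groups carried a general monocyte marker, Csf1r, and far less Ly6c2 than the Ly6C+ groups. Csf1r, the receptor for the growth factor of monocytes, stood between 1645 and 1861 RPM in marrow and between 1429 and 1975 RPM in blood. Ly6c2, which encodes the sorted surface protein, averaged 122 RPM in marrow Ly6C- and 30.1 RPM in blood Ly6C- cells, against 4192 RPM in marrow Ly6C+ and 2709 RPM in blood Ly6C+ cells. Pearson correlations of log2(RPM + 1) ran between 0.931 and 0.959 within marrow, between 0.934 and 0.956 within blood and between 0.918 and 0.952 across the tissues, with all pairs sharing the same genes. Over all genes blood replicate 1 correlated with marrow replicates 1, 2 and 3 at 0.9524, 0.9513 and 0.9523. These values were above its 0.9475 and 0.9336 with blood replicates 2 and 3, while marrow replicate 4 gave 0.9208. Blood replicate 1 also stood nearer to the marrow libraries than the other blood libraries did for many genes named here, among them Socs3, Tnf, Vim and Klf2. Listed genes made up 60.2 to 64.3% of the assumed total in marrow, against 61.6% in blood replicate 1, 68.1% in blood replicate 2 and 71.2% in blood replicate 3.

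Of 11373 genes with at least 2 RPM in at least 3 libraries of the table, 289 (2.54%) differed between marrow and blood Ly6C- cells at an adjusted p under 0.05 in limma fitted to log2(RPM + 1). In marrow 68 genes were higher (0.598%) and 221 were lower (1.94%), so 76.5% of the calls were lower. Scaling to the listed genes gave 93 higher and 156 lower, or 62.7% lower. The median difference of all genes was -0.07 (log2, marrow minus blood). In 259 of the 289 genes (2.28% of the genes tested) the libraries of the tissues did not overlap. Over all genes the 4 marrow libraries lay above the 3 blood libraries in 389 (3.42%) and below them in 748 (6.58%). The size of the difference was at least 1 on the log2 scale in 196 genes and at least 2 in 46. The count rested on single libraries: it was 725 without blood replicate 1, 103 without blood replicate 2, 113 without blood replicate 3 and 183 without marrow replicate 3. The main fit took its estimate of the spread from all 25 libraries of the table, Ly6C+ monocytes and progenitors included. A fit of the 7 libraries alone, with the spread of the marrow and blood Ly6C- libraries only, called 28 genes. No called gene changed direction under any of these settings.

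**Figure D1:**
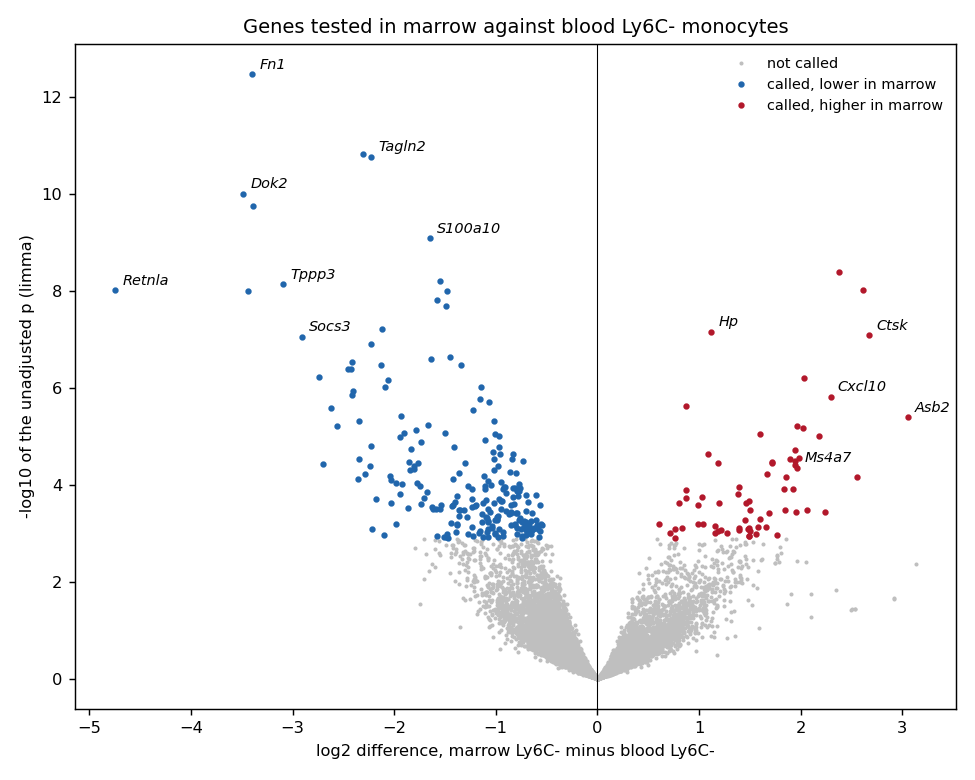
Each point is one of the 11373 genes tested; the x axis is the log2 difference of marrow Ly6C- minus blood Ly6C- monocytes and the y axis is -log10 of the unadjusted p of limma. Coloured points are the 68 genes called higher and the 221 called lower in marrow; Retnla lies farthest to the left at -4.75 and Fn1 has the smallest p.

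The genes that were lowest in marrow relative to blood encode secreted proteins, signalling inhibitors and cytoskeletal proteins. Retnla, which encodes the secreted resistin-like protein RELM-alpha known from alternatively activated macrophages, had 6.47, 5.88, 1.76 and 0 RPM in marrow, against 130, 178 and 32.7 RPM in blood. The highest marrow library was thus well below the lowest blood library, and the difference was -4.75 ± 0.60 (log2, SE; adjusted p = 9.01e-06). Fn1, fibronectin, had 16.4, 30.7, 17.6 and 46.7 RPM in marrow, against 289, 380 and 195 RPM in blood. It fell by 3.40 on the log2 scale (SE 0.27, adjusted p = 3.88e-09), the smallest p of the comparison, and was called under all 19 alternative settings. Fn1 is also a gene of Ly6C+ monocytes, where it averaged 1381 RPM in marrow and 1341 RPM in blood. Dok2, an adaptor that dampens tyrosine kinase signalling, had 1.49, 1.31, 1.17 and 4.45 RPM in marrow, against 20.9, 46.3 and 31.4 RPM in blood (log2 -3.49 ± 0.35). Ecm1, a secreted matrix glycoprotein, had between 0 and 3.98 RPM in marrow and between 18.6 and 36.5 RPM in blood (log2 -3.44 ± 0.43). For all 4 genes the tissues were apart in every library, as the rule that named them required.

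Several regulators were low in every marrow library. Nrarp, a target of Notch that feeds back on the pathway, had 3.98, 7.19, 4.69 and 3.34 RPM in marrow, against 55.0, 79.1 and 44.7 RPM in blood (log2 -3.39 ± 0.35, adjusted p = 4.03e-07). Tppp3, a tubulin-binding protein, had 59.7, 68.6, 34.6 and 93.4 RPM in marrow, against 411, 584 and 595 RPM in blood (log2 -3.09 ± 0.38). Socs3, the feedback inhibitor of STAT3 signalling, had 17.9, 5.23, 12.3 and 32.3 RPM in marrow, against 57.9, 137 and 178 RPM in blood (log2 -2.91 ± 0.41). The lowest of these Socs3 values in blood belonged to replicate 1. Tnf, the inflammatory cytokine, had 6.97, 3.27, 2.93 and 0 RPM in marrow, against 8.11, 33.4 and 33.4 RPM in blood, so that one blood library lay just above the highest marrow library. Its difference of -2.70 ± 0.55 had an adjusted p of 0.00528, and the call was lost without blood replicate 2 and without blood replicate 3, with an adjusted p of up to 0.296 over its alternatives. Cd22, a sialic acid-binding inhibitory receptor best known from B cells, was even within blood at 24.3, 25.7 and 24.0 RPM, against 5.47, 5.23, 1.76 and 3.34 RPM in marrow.

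The other genes of the 15 largest decreases were Pdlim1, Tagln2, Tgm3, Ltc4s, Ccnd2 and Vegfc. Tagln2, transgelin 2, an actin-binding protein, had 103, 95.4, 94.9 and 85.6 RPM in marrow, against 289, 593 and 523 RPM in blood (log2 -2.23 ± 0.21, adjusted p = 6.58e-08). The marrow libraries lay close together, and blood replicate 1 was the lowest of its group. Pdlim1, which links proteins to actin filaments, averaged 13.8 ± 2.9 RPM in marrow (SD, n = 4) and 73.2 ± 21.1 RPM in blood (SD, n = 3). Tgm3, a protein cross-linking enzyme, averaged 19.4 ± 8.1 RPM in marrow and 88.9 ± 5.9 RPM in blood. Ltc4s, leukotriene C4 synthase, averaged 16.2 ± 5.5 RPM in marrow and 67.6 ± 7.7 RPM in blood. Ccnd2, cyclin D2 of the G1 phase, averaged 23.8 ± 3.1 RPM in marrow and 94.4 ± 19.97 RPM in blood. Vegfc, a growth factor for lymphatic vessels, averaged 7.52 ± 1.59 RPM in marrow and 31.0 ± 7.3 RPM in blood. The libraries of the tissues did not overlap in any of these genes, as the rule that named them required.

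**Figure D2:**
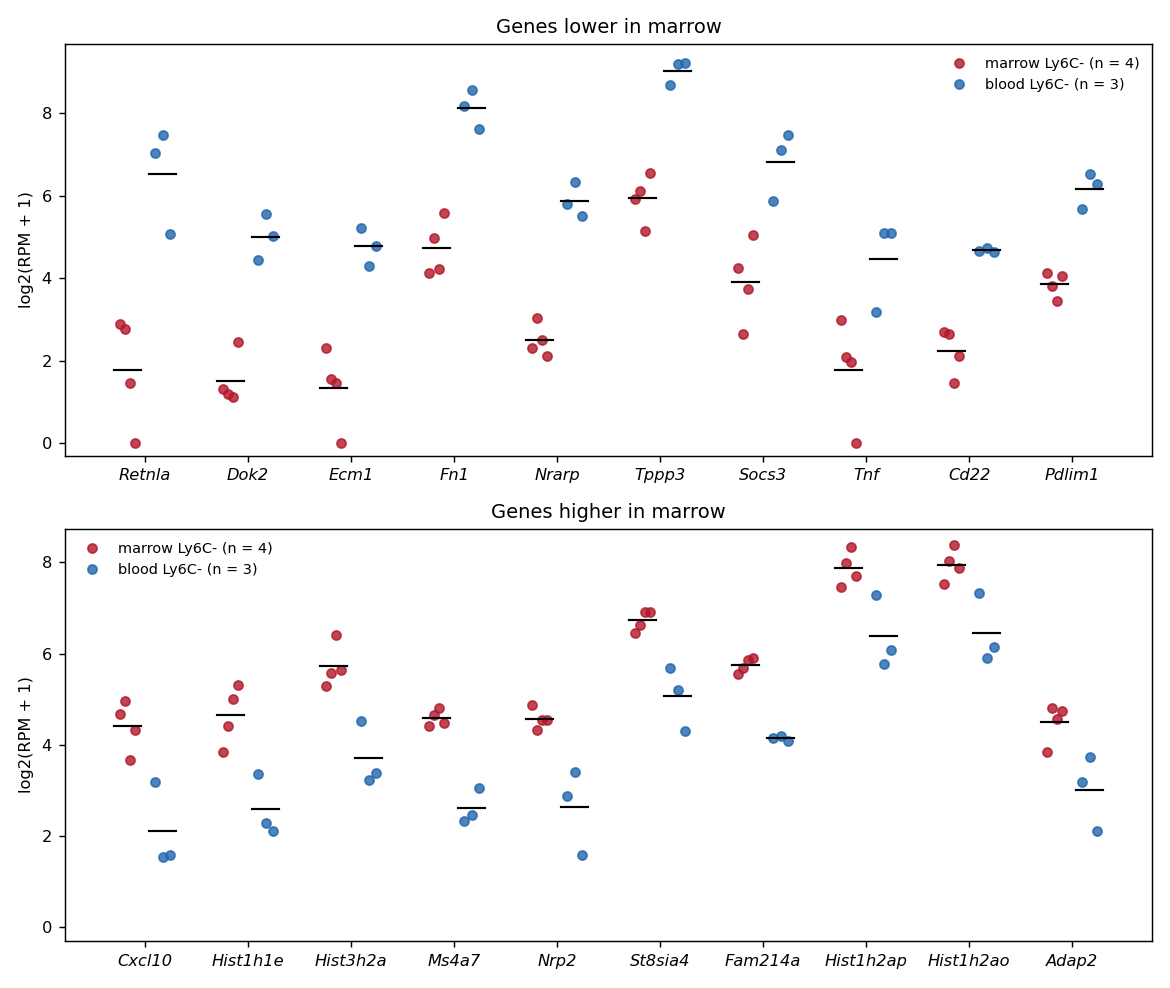
Dots are single libraries of marrow Ly6C- (4, red) and blood Ly6C- monocytes (3, blue), with log2(RPM + 1) on the y axis and black lines at the group means. The upper panel holds the 10 genes with the largest decrease in marrow and the lower panel the 10 with the largest increase by the naming rule. Marrow and blood dots do not overlap within any of the 20 genes, as that rule required.

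The genes that were higher in marrow included a chemokine, histones, membrane proteins and secreted proteins. Cxcl10, an interferon-inducible chemokine that draws T and NK cells, had 24.4, 30.1, 11.7 and 18.9 RPM in marrow, against 8.11, 1.93 and 2.00 RPM in blood (log2 2.29 ± 0.38, adjusted p = 0.000499). It was the only one of 37 interferon response genes to be called higher, and Gbp2, an interferon-induced GTPase, was called lower. The median of that list was 0.01. Ms4a7, a membrane protein of mature monocytes and macrophages, had 20.4, 24.2, 26.9 and 21.1 RPM in marrow, against 4.05, 4.50 and 7.34 RPM in blood (log2 1.97 ± 0.41). Nrp2, a coreceptor for semaphorins and VEGF, averaged 22.95 ± 3.9 RPM in marrow and 6.00 ± 3.83 RPM in blood. Fam214a had 45.8, 50.3, 57.4 and 59.0 RPM in marrow, against 16.8, 17.4 and 16.0 RPM in blood (log2 1.60 ± 0.30), and was called under all 19 alternatives. Hp, haptoglobin, had 626, 499, 449 and 366 RPM in marrow, against 224, 206 and 224 RPM in blood (log2 1.12 ± 0.16, adjusted p = 4.67e-05). Cxcl10, Ms4a7, Nrp2, Fam214a and Hp were higher in each marrow library than in each blood library, as the rule that named them required.

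The remaining genes of the 15 largest increases, histones aside, were these. St8sia4, a polysialic acid transferase, averaged 106 ± 16.5 RPM in marrow and 35.0 ± 15.9 RPM in blood, and lost its call under 7 of 19 alternatives. Adap2, a GTPase-activating protein for ARF6, averaged 22.2 ± 6.0 RPM in marrow and 7.89 ± 4.44 RPM in blood, and lost its call under 8. Padi2, a peptidylarginine deiminase, had 65.7, 84.9, 79.1 and 180 RPM in marrow, against 45.8, 49.5 and 29.4 RPM in blood. The value of marrow replicate 4 stood apart, and without that library Padi2 was no longer called. Slpi, a secreted inhibitor of leukocyte proteases, averaged 28.8 ± 8.9 RPM in marrow and 11.8 ± 2.5 RPM in blood. Tcf4, an E protein required by plasmacytoid dendritic cells, averaged 83.8 ± 14.1 RPM in marrow and 38.5 ± 3.5 RPM in blood, whereas the list of plasmacytoid dendritic cell genes held no other call among its 11 members tested. Pdcd4, an inhibitor of translation, averaged 83.5 ± 12.5 RPM in marrow and 41.8 ± 15.7 RPM in blood.

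Some genes with large increases stayed near the detection limit in blood and fell under the level of 20 RPM that the naming rule asked for or were named for a gene list. Ctsk, cathepsin K, the collagen-cleaving protease of osteoclasts, had 19.4, 21.6, 14.1 and 13.3 RPM in marrow, against 1.16, 1.29 and 3.34 RPM in blood (log2 2.68 ± 0.38, adjusted p = 5.21e-05). It was the only call among 10 osteoclast genes tested. Vcam1, the adhesion molecule carried by resident marrow macrophages, had 4.98, 3.92, 5.27 and 6.67 RPM in marrow and no read in any blood library. Against a floor of 3 reads over the blood libraries together, 0.628 RPM, it was at least 8.30-fold higher in marrow. Among 19 tissue macrophage genes tested Vcam1 was called higher and Folr2, a folate receptor, lower, and the other 17 were not called. Asb2, which recruits filamins for degradation and was chosen after its values were seen, had 5.97, 23.5, 18.7 and 22.2 RPM in marrow, against 1.74, 0 and 2.00 RPM in blood (log2 3.05 ± 0.54). Igf1, insulin-like growth factor 1, averaged 2.97 ± 1.62 RPM in marrow and 0.214 ± 0.371 RPM in blood, which in blood is less than 1 read per library on average.

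Among 26 genes known for Ly6C- monocytes, 8 were called lower in marrow, none was called higher, and the median difference was -0.59. Spn, CD43, a sialomucin used to sort these cells, had 374, 299, 336 and 257 RPM in marrow, against 606, 662 and 709 RPM in blood (log2 -1.07 ± 0.18, adjusted p = 0.000607). Itgax, the integrin CD11c, had 65.7, 75.1, 57.4 and 66.7 RPM in marrow, against 189, 222 and 260 RPM in blood (log2 -1.74 ± 0.33), and was called under all 19 alternatives. For both genes the groups were clearly apart. Tgm2, a transglutaminase, averaged 70.1 ± 16.2 RPM in marrow and 248 ± 20.2 RPM in blood. Cd9, a tetraspanin, averaged 129 ± 34.5 RPM in marrow and 361 ± 72.9 RPM in blood. Bcl2, which protects these cells from death, averaged 111 ± 18.4 RPM in marrow and 210 ± 13.5 RPM in blood. Treml4, a receptor for dying cells, averaged 303 ± 65.4 RPM in marrow and 596 ± 120 RPM in blood, and its call was lost under 5 alternatives. Cd300e, an activating receptor of monocytes, had 295, 187, 204 and 221 RPM in marrow, against 345, 582 and 942 RPM in blood, with a spread in blood as wide as the difference between the tissues, and its call was lost under 7. Klf2, a factor that restrains monocyte activation, had 307, 261, 269 and 383 RPM in marrow, against 423, 757 and 743 RPM in blood, and its call was lost under 10. Without blood replicate 2 the list held 4 calls, without blood replicate 3 it held 5 and without blood replicate 1 it held 11, all lower in marrow.

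The regulators and receptors that set these cells apart from Ly6C+ monocytes were mostly not called. Nr4a1, the factor on which Ly6C- monocytes depend, had 578, 620, 630 and 771 RPM in marrow, against 803, 1206 and 1132 RPM in blood, a difference of -0.67 ± 0.29 with an adjusted p of 0.235. The libraries did not overlap, yet the lowest blood value, replicate 1, lay near the highest marrow value. Cebpb, which sustains Ly6C- monocyte survival, had between 616 and 1023 RPM in marrow and between 583 and 1308 RPM in blood (-0.19 ± 0.23). Cx3cr1, the fractalkine receptor, had between 501 and 630 RPM in marrow and between 296 and 558 RPM in blood (0.40 ± 0.23, adjusted p = 0.413). Ace, angiotensin-converting enzyme, had 705, 624, 650 and 842 RPM in marrow, against 847, 1252 and 1461 RPM in blood (-0.72 ± 0.24, adjusted p = 0.0954). Itgal, the LFA-1 subunit through which these cells patrol, averaged 459 ± 138 RPM in marrow and 855 ± 324 RPM in blood, and came close to the threshold (-0.87 ± 0.25, adjusted p = 0.0584). Fcgr4, Pparg, Pou2f2, Csf1r, Irf8, Spi1 and Klf4 differed by -0.46 to 0.19 with adjusted p of 0.375 or more. Of 56 monocyte transcription factors tested, 2 were higher and 3 lower in marrow, with a median of -0.16. Zeb1, Irf4 and Id3 were among them and averaged below 50 RPM in each group.

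Genes of Ly6C+ monocytes did not move one way. Of 20 tested, Ly6c2 and Hp were called higher in marrow and Fn1, S100a4 and Thbs1 lower, and the median was 0.10. Ly6c2 had 48.8, 125, 274 and 41.2 RPM in marrow, against 53.9, 10.9 and 25.4 RPM in blood (log2 1.84 ± 0.41, adjusted p = 0.0117). Its libraries overlapped, marrow replicates 2 and 3 were the high ones, and without marrow replicate 3 the call was lost. Ccr2, the chemokine receptor that lets Ly6C+ monocytes leave the marrow, had 297, 595, 667 and 383 RPM in marrow, against 604, 390 and 178 RPM in blood (0.41 ± 0.39, adjusted p = 0.658). Marrow replicates 2 and 3 were again the highest of their group. S100a4, a calcium-binding protein of motile cells, averaged 461 ± 101 RPM in marrow and 1004 ± 89.3 RPM in blood (log2 -1.15 ± 0.18).

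Among the lists with at least 10 genes tested, that of the actin cytoskeleton had the most uniform sign. Larger medians were seen in 2 lists made after values had been seen, cholesterol synthesis and uptake (-0.81) and S100 and annexin (-0.83). Of 34 genes for actin, small GTPases and motility, 9 were lower in marrow and none was higher, 33 had a negative sign, and the median was -0.44 against -0.07 over all genes. Vim, vimentin, the intermediate filament of monocytes, had 279, 299, 244 and 301 RPM in marrow, against 478, 916 and 1028 RPM in blood (log2 -1.45 ± 0.22, adjusted p = 0.000126). Capg, which caps actin filaments, had 45.3, 74.5, 63.8 and 40.0 RPM in marrow, against 155, 206 and 131 RPM in blood (log2 -1.55 ± 0.19). Ezr, ezrin, which ties membrane to actin, had 72.7, 64.0, 63.3 and 52.3 RPM in marrow, against 126, 206 and 209 RPM in blood (log2 -1.48 ± 0.19). For these genes every marrow library was below every blood library. Actg1, gamma-actin, averaged 168 ± 19.6 RPM in marrow and 340 ± 108 RPM in blood, and Cfl1, cofilin, which severs actin filaments, had 1460, 1183, 1026 and 1321 RPM in marrow, against 1617, 2571 and 2246 RPM in blood. Vasp, Rhoc, Rhoa and Anxa2 were the remaining calls. Of the 9 calls, 5 were left without blood replicate 2 and 5 without blood replicate 3, while 15 genes of the list were called without blood replicate 1. Actn1, alpha-actinin 1, lies outside the list and went the other way, with 8.46, 7.84, 1.17 and 6.67 RPM in marrow and 0, 1.93 and 0.667 RPM in blood.

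Tubulins and the S100 and annexin proteins were listed after their values had been seen, and their counts are given for description. Of 14 tubulin and tubulin-binding genes 5 were lower in marrow and none higher (median -0.65). Tubb6 averaged 39.3 ± 6.5 RPM in marrow and 124 ± 4.4 RPM in blood (log2 -1.64 ± 0.25), and Tuba1a averaged 47.1 ± 9.6 RPM in marrow and 107 ± 26.4 RPM in blood. Tuba1a, Tuba1b and Tuba1c are near-identical in sequence, so reads could be divided between them. Of 17 S100 and annexin genes 7 were lower and none higher (median -0.83), and edgeR called 5 lower and 2 higher. S100a10, the partner of annexin A2 at the membrane, had 45.8, 63.4, 64.4 and 43.4 RPM in marrow, against 147, 187 and 176 RPM in blood (log2 -1.65 ± 0.18, adjusted p = 1.55e-06). Ahnak, a large scaffold that binds that pair, averaged 59.2 ± 10.6 RPM in marrow and 151 ± 20.9 RPM in blood.

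Adhesion molecules and receptors shifted in part. Of 32 integrin and adhesion genes 6 were lower in marrow (Itgax, Cd9, Spn, Adgre5, Itgam and Icam1) and 2 were higher (Vcam1 and Amica1), with a median of -0.25. Adgre5, CD97, an adhesion receptor of leukocytes, had 442, 562, 456 and 750 RPM in marrow, against 988, 1422 and 1695 RPM in blood (log2 -1.31 ± 0.27). Itgam, the integrin CD11b, averaged lower in marrow by -0.80 ± 0.17. Amica1, the junction adhesion molecule now named Jaml, had 18.4, 17.0, 14.1 and 17.8 RPM in marrow, against 6.37, 5.14 and 10.01 RPM in blood, and its call was lost under 9 of 19 alternatives. Of 36 Fc and inhibitory receptor genes 4 were lower and none higher. Pilra, an inhibitory receptor with immunoreceptor tyrosine motifs, had 335, 335, 300 and 264 RPM in marrow, against 558, 629 and 619 RPM in blood (log2 -0.97 ± 0.18), and was called under all 19 alternatives. Of 30 chemokine and trafficking receptors 1 was lower in marrow and none was higher, with a median of -0.13. S1pr5, the sphingosine phosphate receptor that these cells need to leave marrow, had between 159 and 221 RPM in marrow and between 232 and 299 RPM in blood and was not called (-0.39 ± 0.25, adjusted p = 0.471). Cxcr4, which holds cells in marrow, had between 56.2 and 117 RPM in marrow and between 72.4 and 210 RPM in blood (-0.23 ± 0.41).

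Signalling genes moved in part. Of 21 immediate early genes 2 were lower (Dusp1 and Klf2), none was higher, and the median was -0.51. Dusp1, a phosphatase that switches off MAP kinases, had 118, 66.0, 93.7 and 112 RPM in marrow, against 139, 326 and 340 RPM in blood (log2 -1.38 ± 0.32), with blood replicate 1 close to the marrow libraries. Among 22 feedback inhibitors Socs3, Dusp1 and Dusp6 were lower and Pdcd4 higher. Among 24 inflammatory NF-kappaB genes Tnf, Icam1 and Sod2 were lower and Cxcl10 higher. Without blood replicate 2, and likewise without blood replicate 3, no immediate early gene was called, and 5 were called lower without blood replicate 1. Of 28 Notch pathway genes, listed after values had been seen, Nrarp, Hes1 and Rbpj were lower and none was higher, while the median was -0.01. Hes1, the transcriptional repressor induced by Notch, had 62.7, 52.9, 45.7 and 70.1 RPM in marrow, against 140, 185 and 137 RPM in blood (log2 -1.40 ± 0.33). Rbpj, the DNA-binding partner of Notch, averaged 28.1 ± 3.9 RPM in marrow and 55.7 ± 14.9 RPM in blood.

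Of 43 complement, scavenger and lipid genes 6 were lower in marrow and 1 was higher, with a median of -0.17. Of 22 genes for cholesterol synthesis and uptake, a list made after values had been seen, 8 were lower in marrow, none was higher, 21 had a negative sign and the median was -0.81. All 8 averaged under 35 RPM in each group, and 2 calls were left without blood replicate 2. Cyp51, the lanosterol demethylase of cholesterol synthesis, had 11.4, 11.8, 6.44 and 7.79 RPM in marrow, against 22.01, 30.2 and 23.4 RPM in blood (log2 -1.36 ± 0.29). Sqle, squalene epoxidase, had between 0 and 2.49 RPM in marrow and between 7.53 and 11.3 RPM in blood. Fdps and Fdft1 of the same pathway and Stard4, a sterol carrier, were among the other calls. Apoc2, a lipoprotein component that activates lipoprotein lipase, went the other way, with 1404, 1292, 1223 and 1221 RPM in marrow, against 709, 687 and 705 RPM in blood (log2 0.87 ± 0.20, adjusted p = 0.0121), and shares its reads with the listed read-through of Apoc4. Its call was lost without blood replicate 2 and without blood replicate 3. Apoe, the lipoprotein ligand, had 9952, 10460, 9135 and 8908 RPM in marrow, against 6930, 6005 and 6024 RPM in blood, a separation of all libraries that did not pass the test (0.61 ± 0.22, adjusted p = 0.145). Of 20 genes for eicosanoid synthesis and reception, also listed afterwards, Ltc4s, Ptgs1, Tbxas1 and Ptgir were lower and none was higher (median -0.43). Cfp, properdin, which stabilises the complement convertase, had 65.7, 79.1, 62.7 and 65.6 RPM in marrow, against 140, 276 and 221 RPM in blood (log2 -1.57 ± 0.20, adjusted p = 1.23e-05).

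The promoters of 4 of these genes are shown as the 250 bases before the gene start on the coding strand, from RefSeq at GRCm38.p6, to set letters beside the values: Retnla and Cxcl10 as the largest decrease and increase by the naming rule, and Cyp51 and Actg1 as members of the lists that moved together. Capitals mark a match to TTC and GAA with 4 bases between, a spacing of STAT6 sites, in Retnla, to GAAA and GAAA with 2 bases between, the core of interferon-stimulated elements, in Cxcl10, to CCAAT, the NF-Y box, in Cyp51, and to the CArG box of serum response factor in Actg1. Each motif was searched on both strands, and the motifs do not overlap in these windows.
Retnla, chr16:48842359-48842608, plus strand: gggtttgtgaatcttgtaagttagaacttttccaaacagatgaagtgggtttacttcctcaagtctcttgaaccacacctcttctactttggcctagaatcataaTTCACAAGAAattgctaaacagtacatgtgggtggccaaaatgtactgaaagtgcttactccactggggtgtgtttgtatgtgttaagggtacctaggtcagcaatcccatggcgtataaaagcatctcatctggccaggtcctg
Cxcl10, chr5:92348890-92349139, minus strand: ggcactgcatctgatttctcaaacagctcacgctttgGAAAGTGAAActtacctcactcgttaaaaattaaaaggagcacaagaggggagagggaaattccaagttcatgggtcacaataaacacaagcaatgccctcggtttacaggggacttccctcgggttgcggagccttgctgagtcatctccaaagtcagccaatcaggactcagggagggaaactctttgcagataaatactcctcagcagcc
Cyp51, chr5:4104698-4104947, minus strand: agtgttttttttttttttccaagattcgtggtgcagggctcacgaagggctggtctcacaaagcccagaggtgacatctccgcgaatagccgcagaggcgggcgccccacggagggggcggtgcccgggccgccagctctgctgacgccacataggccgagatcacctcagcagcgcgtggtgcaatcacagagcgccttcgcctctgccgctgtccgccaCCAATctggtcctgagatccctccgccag
Actg1, chr11:120348496-120348745, minus strand: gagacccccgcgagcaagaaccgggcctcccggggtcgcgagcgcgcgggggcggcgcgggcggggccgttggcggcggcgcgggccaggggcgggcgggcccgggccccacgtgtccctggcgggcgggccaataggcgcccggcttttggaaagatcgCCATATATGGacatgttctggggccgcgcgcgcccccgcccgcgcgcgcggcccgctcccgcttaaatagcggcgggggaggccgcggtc
The match began 145 bases before the start of Retnla, 213 before that of Cxcl10, 29 before that of Cyp51 and 90 before that of Actg1. CCAAT was also present, unmarked, 54 bases before the start of Cxcl10 and 120 before that of Actg1. Over 32851 promoters in the table, 5.85% held the STAT6 spacing, 2.98% held the interferon core, 33.8% held CCAAT and 1.47% held a CArG box. Of the 22 cholesterol genes tested 15 matched an entry, and CCAAT was present in 15 of 15. Of the 34 actin and motility genes 31 matched an entry, and 1 held a CArG box. A match is a description of the letters and not of binding.

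Histone and cell cycle genes were higher in marrow where they were called. Of 63 histone genes, listed after their values had been seen, 10 were higher, none was lower and the median was 0.82. The count was 3 without blood replicate 2, 3 without blood replicate 3 and 18 without blood replicate 1. Most mRNAs of replication-dependent histones lack a poly(A) tail, and the libraries were made on oligo(dT) beads. Hist3h2a had 38.3, 46.4, 84.3 and 48.9 RPM in marrow, against 22.01, 8.36 and 9.34 RPM in blood (log2 2.02 ± 0.37). Hist1h2ap had 176, 252, 323 and 207 RPM in marrow, against 154, 54.0 and 66.1 RPM in blood (log2 1.5 ± 0.37), and Hist1h1e averaged 25.9 ± 11.3 RPM in marrow and 5.49 ± 3.28 RPM in blood. Marrow replicate 3 and blood replicate 1 were the highest of their groups for Hist3h2a and Hist1h2ap, and the libraries did not overlap, as the naming rule required. Hist1h2ao, Hist1h2bq and Hist1h2br are near-copies of their neighbours and returned nearly the same or the same values, so these calls are not separate evidence. Of 43 cell cycle genes Aurkb, Ube2c and Birc5, which act in mitosis, were higher, none was lower, and the median was 0.42. Birc5, survivin, had 7.46, 11.8, 9.37 and 6.67 RPM in marrow, against 1.74, 0.643 and 4.004 RPM in blood. The same genes were far higher in marrow Ly6C+ monocytes, in which 43 of the 43 cell cycle genes were called above blood Ly6C+ with a median of 4.01. In Ly6C- cells none of the 43 was called by edgeR or without blood replicate 2, and 6 were called without blood replicate 3.

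**Figure D3:**
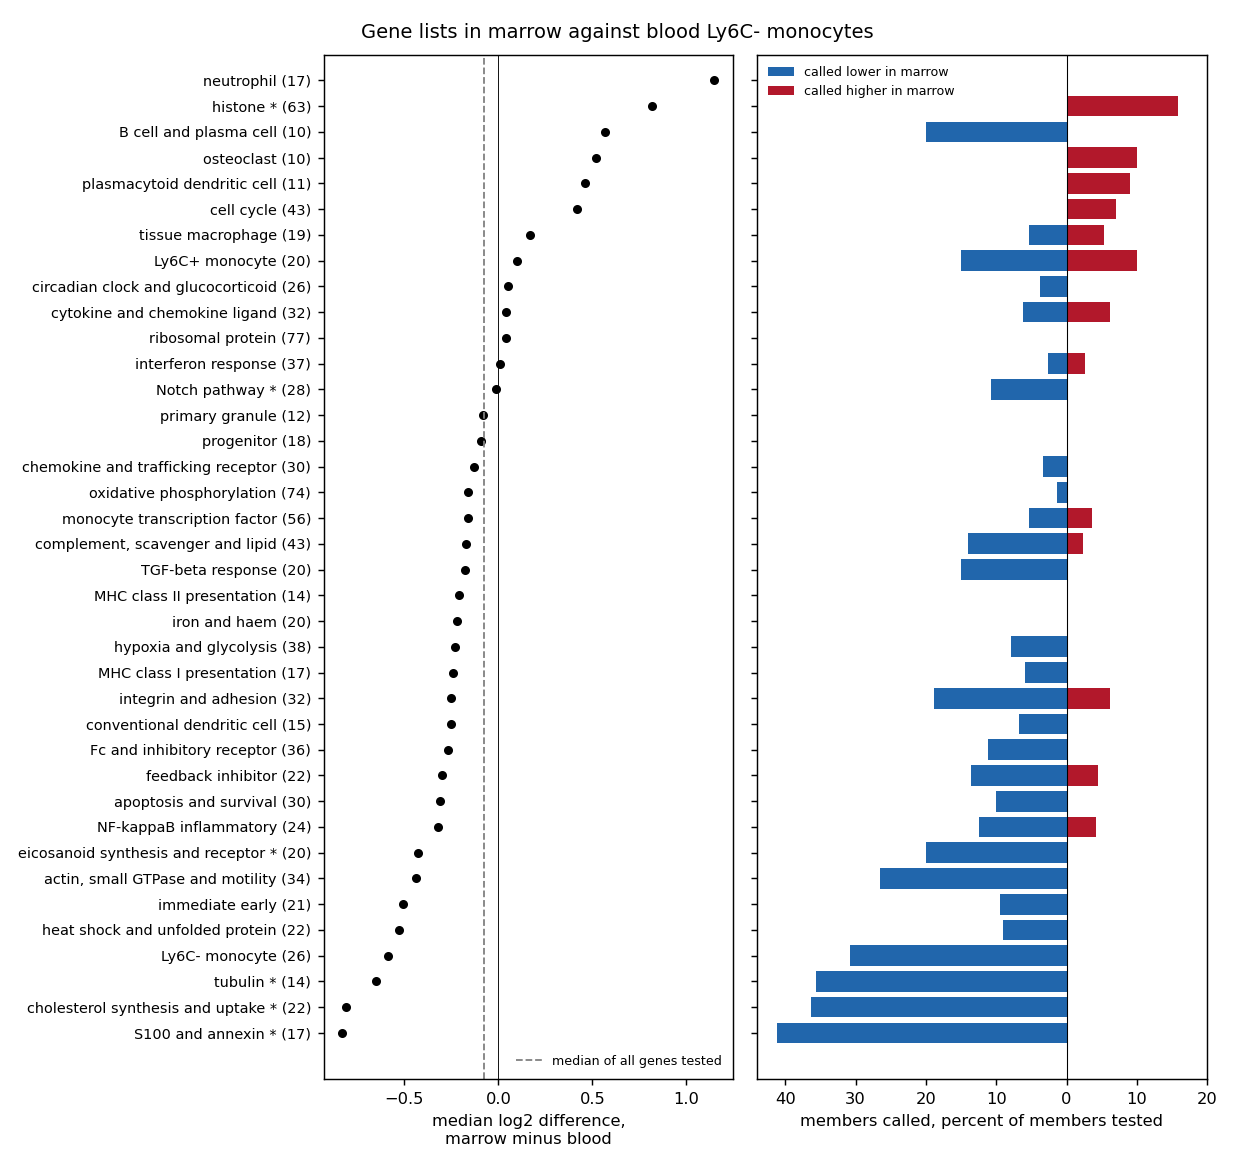
Gene lists with at least 10 genes tested, with the number tested in brackets and an asterisk on lists made after values were seen. The left panel gives the median log2 difference of marrow Ly6C- minus blood Ly6C- monocytes, with a dashed line at the median of all genes (-0.07); the right panel gives the percent of members called lower (left, blue) and higher (right, red) in marrow, against 1.94% and 0.598% of all genes.

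Other lists held few calls. None of 77 ribosomal protein genes (median 0.04), none of 14 MHC class II presentation genes (median -0.21), none of 20 iron and haem genes (median -0.22) and none of 18 progenitor genes (median -0.09) was called by limma. For progenitor genes edgeR, DESeq2, scaling to the listed genes and quantile scaling each called 1 higher. DESeq2 called 1 iron and haem gene lower, and scaling to the listed genes called 1 MHC class II gene higher. Without blood replicate 1, 3 ribosomal genes were called higher, 2 MHC class II genes lower, and 2 iron and haem genes higher and 1 lower; without blood replicate 3, 1 MHC class II gene was called higher. Over all genes 1821 had an unadjusted p under 0.05. H2-Ab1, an MHC class II chain, had between 1890 and 3937 RPM in marrow and between 2732 and 3597 RPM in blood. One of 74 oxidative phosphorylation genes was lower, and 3 of 38 hypoxia and glycolysis genes were lower (Pgk1, Pfkp and Ankrd37). Of 22 heat shock and unfolded protein genes Hspa8 and Xbp1 were lower, with a median of -0.53.

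Markers of other cells differed between libraries. Haemoglobin genes dominated the erythroid list, whose sum ran from 1656 to 4424 RPM in marrow and from 84.1 to 1024 RPM in blood and counts reads of near-identical copies more than once. None of its 9 genes tested was called, 3 of its 18 genes, among them Gata1 and Car1, had no read in any of the 7 libraries, and the part of this RNA in the other differences was not tested. The neutrophil list summed to between 113 and 775 RPM in marrow and between 77.0 and 118 RPM in blood, with the highest sum in marrow replicate 2, where S100a8 reached 149 RPM and S100a9 265 RPM. None of 17 neutrophil genes tested was called by limma, while edgeR called 4 and DESeq2 called 3 higher in marrow, and 2 of the 20 had no read. The part of this RNA in the other differences was not tested. The B and plasma cell list summed to between 298 and 1181 RPM in marrow and between 429 and 759 RPM in blood, mostly from Jchain, and its defining members Pax5 and Cr2 had no read in any library. T and NK cell genes summed to between 25.8 and 56.2 RPM in marrow and between 45.2 and 78.7 RPM in blood. In bulk libraries of this kind fewer cells of a type and less RNA per cell cannot be told apart.

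The tissue difference of Ly6C- cells was then set beside that of Ly6C+ cells of the same table, which shares no library with it. In marrow against blood Ly6C+ monocytes 2959 genes were called (26%). Of the 289 genes called in Ly6C- cells 104 were also called in Ly6C+ cells, 76 in the same direction and 28 in the opposite one. The difference between the differences, tested as an interaction, was called for 2026 of 11373 genes (17.8%), 401 positive and 1625 negative, and for 168 of the 289. The interaction contains the Ly6C- difference that chose the 289, so their share is raised by that choice. The same holds for the size of the interaction in the leading genes. Quantile scaling, which moved the median interaction from -0.28 to 0.05, gave 843 positive and 969 negative. For 3 of the leading genes the tissue difference was more negative in Ly6C- cells: the interaction was -4.88 ± 0.86 for Retnla, -3.46 ± 0.38 for Fn1 and -3.56 ± 0.49 for Dok2, while their differences in Ly6C+ cells were 0.13, 0.06 and 0.07. Vim, Tagln2, Capg and S100a10 also had negative interactions, from -2.72 to -1.72, so their tissue difference too was more negative in Ly6C- cells. S100a10 was higher in marrow Ly6C+ cells (log2 0.76). Ctsk, Cxcl10, Ms4a7 and Apoc2 had positive interactions between 2.28 and 3.17.

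Other genes moved the same way in both classes. Tppp3 fell by 3.62 on the log2 scale in Ly6C+ cells and by 3.09 in Ly6C- cells (interaction 0.52 ± 0.54, adjusted p = 0.553). Socs3 fell by 4.04 in Ly6C+ and by 2.91 in Ly6C- cells (interaction adjusted p = 0.184), and Tgm3 fell by 2.62 in Ly6C+ and by 2.22 in Ly6C- cells. Itgax and Adgre5 fell in both classes without a called interaction. Dusp1, Klf2, Treml4 and Hes1 fell more in Ly6C+ cells, with interactions of 2.35, 1.40, 1.59 and 1.45. Of the 63 histone genes 55 were higher and 2 lower in marrow Ly6C+ cells (median 2.21), and 27 had a called interaction; of the 43 cell cycle genes 42 had one. Tuba1b went in opposite directions, at -0.81 in Ly6C- and 2.64 in Ly6C+ cells. The 10 largest interactions above 20 RPM were Retnla and 9 others, among them Cenpe, a motor protein of the kinetochore, and Asf1b, a histone chaperone, which were high in marrow Ly6C+ cells and lay between 1.11 and 12.01 RPM in the Ly6C- libraries.

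**Figure D4:**
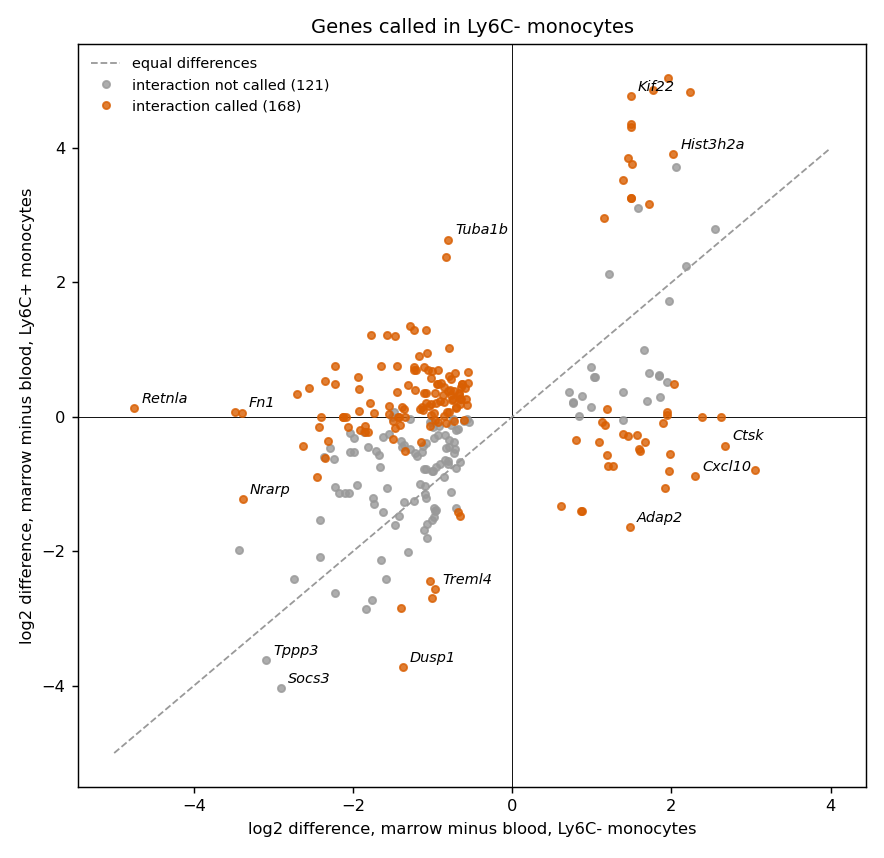
Each point is one of the 289 genes called in Ly6C- monocytes, with the log2 difference of marrow minus blood in Ly6C- cells on the x axis and in Ly6C+ cells on the y axis; the dashed line marks equal differences. Orange points are the 168 genes with a called interaction; Retnla and Fn1 lie near 0 on the y axis, and Tppp3 and Socs3 lie low on both axes.

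The position of both groups along the change from Ly6C+ to Ly6C- monocytes was described with genes chosen in other libraries, the 100 that were most higher and the 100 that were most lower in wild-type 16-week blood Ly6C- against Ly6C+ monocytes. Of the rising genes 18 of 100 were lower in marrow Ly6C- than in blood Ly6C- cells and none was higher (median -0.39). Of the 99 falling genes tested 16 (16.2%) were lower and 3 (3.0%) were higher (median -0.18). Over all genes tested 1.94% were lower and 0.598% higher, with a median of -0.07. The share called lower was thus above that of all genes in the rising and the falling genes alike. The mean log2 level of the rising genes was 6.03, 5.76, 5.83 and 5.80 in marrow, against 6.25, 6.42 and 6.58 in blood, so each marrow library was below each blood library. The mean level of the falling genes was 3.80 ± 0.19 in marrow and 4.06 ± 0.07 in blood. Rising minus falling gave 2.06 ± 0.28 in marrow Ly6C- and 2.36 ± 0.23 in blood Ly6C- cells, which overlapped, against 0.38 ± 0.22 in blood Ly6Cint, -3.86 ± 0.17 in marrow Ly6C+ and -2.93 ± 0.10 in blood Ly6C+ cells (SD; n = 4, 3, 3, 3 and 4).

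**Figure D5:**
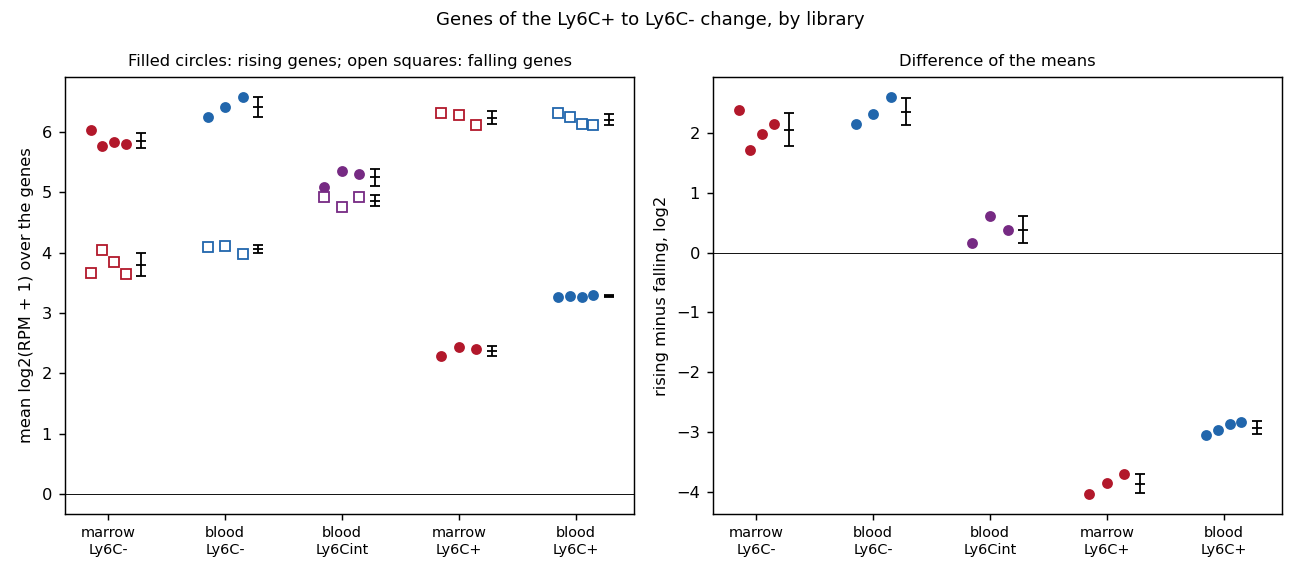
Left, mean log2(RPM + 1) of the 100 rising (filled circles) and 100 falling genes (open squares) of the Ly6C+ to Ly6C- change, one symbol per library; right, rising minus falling. Bars are mean and SD; marrow Ly6C- libraries lie between 1.72 and 2.38 and blood Ly6C- libraries between 2.15 and 2.60, above the 3 other groups.

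Blood Ly6C- libraries of the other tables allowed a look at the blood side of the comparison, chosen after the values had been seen. These 2 wild-type 16-week and 2 host libraries were scaled separately and differ in age, background or preparation, so only levels are set side by side; host values, scaled to a total of 1000000 in each library, are given as units. Of the 221 genes lower in marrow, 132 (59.7%) lay above the highest marrow library in all 4 of them, against 24.1% of all genes, 28 (12.7%) lay above it in none, and 11 (4.98%) lay below the lowest marrow library in all 4. Of the 68 genes higher in marrow, 34 (50%) lay below the lowest marrow library in all 4, against 3.97% of all genes. The same marrow libraries chose both sets of genes, so part of the excess over all genes is built in. Listed genes made up 80.0 and 77.1% of the assumed total in the 16-week libraries, against 60.2 to 64.3% in marrow. Host units count listed genes alone, so both scalings raise these blood values relative to marrow. Nrarp had 3.34 to 7.19 RPM in marrow, against 57.7 and 65.7 RPM in the 16-week libraries and 153 and 97.3 units in host blood. Tppp3, Socs3, Tnf, Tgm3, Tagln2, Pdlim1, Vegfc, Spn, Cd9, Itgax, Tgm2, Vim and S100a10 also stood above marrow in all 4 libraries. Ctsk, Vcam1, Ms4a7, Fam214a, Hist3h2a, Asb2 and Birc5 stood below marrow in all 4.

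Other leading genes had their blood level only in the 7-week libraries. Retnla was listed at 0 in both 16-week libraries and at 0 and 1.32 units in host blood, against 32.7 to 178 RPM in 7-week blood. Fn1 had 16.4 to 46.7 RPM in marrow, against 14.3 and 55.0 RPM in the 16-week libraries and 8.76 and 5.26 units in host blood. Dok2 had 6.67 and 3.60 RPM in the 16-week libraries and 3.51 and 0 units in host blood. Ltc4s, Capg, Cfp, Actg1, Rbpj, Tbxas1 and Hspa8, lower in marrow than in 7-week blood, were among the 11 that lay below the lowest marrow library in all 4 of the other blood libraries. Actg1 varied widely among them, with 15.3 and 136 RPM in the 16-week libraries and 2.63 and 1.31 units in host blood. Host spleen listed Actg1 at 1.315 and 3.945 units, so its low level in the host libraries was not confined to blood. The reason for that level was not tested. Adap2 lay below the lowest marrow library in none. For these genes the high or low blood value of the main comparison was not seen in the other blood libraries.

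Spleen Ly6C- monocytes of host mice offered a second tissue against blood, in libraries prepared after lysis of red cells. Its blood side is the 2 host blood libraries already described, and it shares no library with the 7-week comparison. Of 12096 genes 23 were called (0.19%), 18 higher (0.149%) and 5 lower (0.0413%) in spleen. Of 64 marrow-higher genes tested in that table, Dnase1l3 was also called higher in spleen, and of 216 marrow-lower genes Klf2 was also called lower. Dnase1l3, an extracellular DNase of dendritic cells and macrophages, had 192 and 200 units in spleen and was listed at 0 in both blood libraries, whereas it had 2.49, 7.19, 1.76 and 4.45 RPM in marrow, against 0, 0 and 0.667 RPM in blood of the 7-week table. Klf2 had 691 and 673 units in spleen, against 1173 and 1492 units in blood (log2 -0.95 ± 0.20, adjusted p = 0.0498). The median spleen difference was 0.61 for the 64 genes and 0.00 for the 216, against 0.07 over 11008 genes tested in both tables. Vcam1 had 5.70 and 5.26 units in spleen and was listed at 0 in both blood libraries, without passing the test. H2-Aa, an MHC class II chain, was higher in spleen (log2 3.12 ± 0.41) and was not called in marrow (-0.37 ± 0.27). Nrarp, Tppp3, Itgax, Spn and Tagln2, all lower in marrow, differed by -0.35 to 0.36 in spleen and were not called. With 2 libraries per group, leaving out 1 library gave between 1 and 12 genes called higher, the fewest without blood replicate 2, and between 1 and 3 called lower.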

How the data were processed

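RNA of sorted monocytes was sequenced after oligo(dT) selection; per the submitters' processing notes bcl2fastq, HISAT 0.1.5, SAMtools and HOMER were used with genome build mm9, and the counting options are not given in the sources used here. The authors deposited, for the 7-week and 16-week tables, a signal per gene, read counts scaled per library to a total taken here as 10000000 (the total is not stated), which includes reads outside the 24421 listed genes; values were divided to RPM. For the transfer table the authors deposited a score, a rounded value scaled to a common total, which was divided to a total of 1000000. Whole reads were recovered in 100% of values of the 7-week and 16-week tables within 0.1 read. Count fits left out 1 blood Ly6Cint library (24 libraries), because 1 read there was worth 10.1 deposited units, close to a round number.

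Genes with at least 2 RPM in at least 3 libraries were tested with limma 3.58.1 (R 4.3.3) on log2(RPM + 1) across all 25 libraries, with Benjamini-Hochberg adjustment at 0.05; fold changes on this scale understate those of low genes. edgeR 4.0.16 (TMM) and DESeq2 1.42.0 ran on recovered reads as alternatives. On simulated counts limma found 72 of 100 genes changed by log2 1, 100 of 100 changed by log2 2, and called 34 of 11173 unchanged genes. These counts had 1 dispersion, 0.0371, for every gene, and changes were placed only in genes well above the filter. The figures therefore do not cover low genes or genes with a wider spread. The rule for named genes took the 15 largest called differences in each direction without overlap and with 20 RPM in the higher group, the 10 largest interactions, up to 5 called members of each gene list with the smallest p, and 28 fixed genes; further members of the lists and Asb2, Actn1, Apoe, Dnase1l3 and H2-Aa were named after their values were seen. The comparison and gene lists were chosen with earlier results of these data known. The labels do not say that replicates are separate animals. The p-values measure the spread between libraries within groups, pooled over all groups of a table, and this spread may be technical. Python used numpy 2.4.6, pandas 2.3.3 and scipy 1.17.1. The tables give no coordinates; promoters are RefSeq at GRCm38.p6, a build other than mm9. Some genes are not reported here.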

Additional observations from a re-analysis of the deposited data

Results flagged for a closer look

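Tests of the interaction showed that some named genes had a tissue difference in Ly6C- cells that was not that in Ly6C+ cells. The values here are the marrow minus blood difference in Ly6C- cells minus the same difference in Ly6C+ cells, in log2 units from limma at an adjusted p under 0.05. Genes named for a large Ly6C- difference were chosen on a part of this value. Since the median of all genes was -0.28 and became 0.05 with quantile scaling, small negative values depend on the scaling.

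Among the genes with the largest decreases the value was -4.88 for Retnla, -3.56 for Dok2, -3.46 for Fn1, -3.04 for Tnf, -2.72 for Tagln2, -2.35 for Ccnd2, -2.16 for Nrarp, -1.95 for Pdlim1, -1.71 for Vegfc and -1.56 for Cd22. Among cytoskeletal and S100 genes it was -3.44 for Tuba1b, -3.21 for Tuba1c, -2.99 for Rhoc, -2.41 for S100a10, -1.82 for Vim, -1.72 for Capg, -1.33 for Cfl1, -1.30 for Ezr, -1.29 for Vasp, -1.27 for Tuba1a, -1.02 for Rhoa, -0.93 for Actg1, -0.84 for Ahnak, -0.78 for S100a4 and -0.75 for Anxa2. Among lipid, complement and metabolic genes it was -2.99 for Sqle, -2.99 for Stard4, -2.79 for Cfp, -2.38 for Fdps, -1.62 for Ptgs1, -1.59 for Pgk1, -1.54 for Fdft1 and -1.18 for Pfkp, against 2.83 for Apoe and 2.28 for Apoc2.

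Among mitotic and histone genes it was -4.95 for Asf1b, -4.91 for Cenpe, -3.10 for Birc5, -3.09 for Ube2c, -2.87 for Hist1h2ap, -2.83 for Hist1h2ao, -2.14 for Aurkb, -1.89 for Hist3h2a and -1.77 for both Hist1h2bq and Hist1h2br. Among genes of the monocyte classes it was 2.45 for Ace, 2.22 for Nr4a1, 2.01 for Fcgr4, 1.90 for Pparg, 1.67 for S1pr5, 1.59 for Treml4, 1.40 for Klf2, 1.34 for Csf1r, 1.33 for Cx3cr1, 1.2 for Hp and 1.07 for Itgal, against -2.12 for Thbs1, -2.02 for Spn, -1.63 for Klf4, -1.17 for Cd9 and -0.85 for Bcl2. Among the genes higher in marrow it was 3.85 for Asb2, 3.17 for Cxcl10, 3.12 for Adap2, 3.11 for Ctsk, 2.78 for Ms4a7, 2.62 for Vcam1, 2.11 for Fam214a, 2.07 for Zeb1, 2.04 for Igf1, 1.93 for Padi2, 1.87 for Dnase1l3, 1.46 for Tcf4, 1.28 for Amica1 and 1.07 for Slpi. It was also 2.35 for Dusp1, 1.45 for Hes1 and 1.28 for H2-Aa, and -1.63 for Rbpj and -0.90 for Hspa8.

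One of the 4 marrow Ly6C- libraries lay far from the other 3 in 6 of the 164 named genes by Dixon's criterion. Chance meets this criterion in about 1 of 20 groups, so the count is not above that rate. The values that stood apart were 180 RPM for Padi2, 4.45 RPM for Dok2, 1259 RPM for Pou2f2, 2.22 RPM for Ptgs1, 0.653 RPM for Folr2 and 0.498 RPM for Thbs1. Those of Folr2 and Thbs1 are single reads.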

How the results depend on the processing

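All 289 called genes kept their direction in each of the 19 alternatives that gave a value, and none of the 3101 values of named genes under them reversed, while 480 lost the call. Leaving out 1 library gave 103 to 725 called genes, 28 to 169 higher and 75 to 556 lower; the libraries that moved the count by over 1.5 times were marrow replicate 3 (183) and blood replicates 1 (725), 2 (103) and 3 (113). Array weights gave 688 (195 higher, 493 lower), the 7 libraries alone 28 (7 higher, 21 lower), and DESeq2 118 higher. Of the 289, 117 were called in every setting over all 7 libraries except the fit of them alone, 70 in every omission of 1 library and 50 in both. For the interaction, leaving out 1 library gave 1594 to 2299 genes, 317 to 476 positive and 1277 to 1823 negative. The compared libraries alone gave 1042 (218 positive, 824 negative), quantile scaling 843 positive and 969 negative, edgeR 630 and 791, DESeq2 917 and 953, and TMM scaling in limma, chosen after seeing the data, 675 and 1070. For spleen against blood leaving out 1 library gave 1 to 12 higher and 1 to 3 lower genes, with the lone library assumed to vary like the other groups. For the conversion genes the score difference was -0.301, between -0.408 and -0.178 without 1 library and -0.521 with 50 genes in each direction. With the replicate number as a block 236 genes were called (61 higher, 175 lower). Same-numbered libraries of the tissues had correlations of their deviations from the group means of -0.079, -0.038 and -0.172. Other pairs ran from -0.175 to 0.216. With so few libraries these correlations cannot decide whether the numbers pair the samples, and pairing remains unknown. Of 855 list counts under alternatives 290 moved by over 1.5 times. One read is worth up to 1.11 RPM in marrow, which limits genes of a few RPM.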
